A study of Mus musculus with 2 samples.

Results

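The microRNA genes Mir532, Mir188, Mir362, Mir501 and Mir500 lie one after another in an intron of Clcn5 on the mouse X chromosome, and their levels were measured in the aged heart. The members are the 5 rows of the count tables that carry these symbols in GENCODE M21, of 2202 microRNA genes in all. The heart tissue came from adult female mice of the hybrid strain B6CASTF1/J (C57BL/6J crossed with CAST/EiJ), aged 18 to 20 months, obtained from The Jackson Laboratory. MicroRNA-seq libraries were made from total RNA, and the labels number the 2 libraries as biological replicates 1 and 2 of 1 group. Both libraries cite 1 donor record, and nothing states that the tissues came from separate animals. SDs therefore cover no more than the spread of these libraries, which may be technical. The p-values weigh differences against counting noise only and hold no term for spread between libraries. No treatment, genotype or age contrast exists in this design.

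A microRNA gene is transcribed as part of a longer RNA, from which the enzyme Drosha cuts a hairpin and Dicer then cuts a duplex of a 5′ and a 3′ arm. One arm of the duplex guides an Argonaute protein to messenger RNAs, mainly by pairing through the seed, bases 2 to 8. Hairpins in an intron, as here, can be released from the transcript of their host gene or from a transcript of their own. Clcn5 encodes a chloride and proton exchanger of endosomes, best known from the kidney proximal tubule. Among the cluster's products, miR-188-3p has been described as a regulator of autophagy in the infarcted mouse heart, miR-532-3p as a regulator of an apoptosis repressor in heart muscle cells, and miR-501 as a microRNA of activated muscle stem cells in the mouse. In human cancer cells, miR-362 and miR-500 have been linked to inhibitors of NF-κB signalling.

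The mature sequences below are RefSeq's on GRCm38.p6, the assembly also called mm10, and all lie on the minus strand. All 5 genes were matched by symbol, which gave 9 mature arms: both of Mir188, Mir362, Mir501 and Mir500, and the 3p arm of Mir532. Comparisons of seeds cover these arms only. The reference used lists no 5p arm of Mir532, so a product of that arm is left out of them. They are shown in the order of transcription because the hairpins fall into related sequences, with the seed in capitals.
miR-532-3p: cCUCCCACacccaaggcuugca
miR-188-5p: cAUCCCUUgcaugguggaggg
miR-188-3p: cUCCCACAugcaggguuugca
miR-362-5p: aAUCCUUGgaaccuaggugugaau
miR-362-3p: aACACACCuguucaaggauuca
miR-501-5p: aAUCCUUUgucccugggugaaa
miR-501-3p: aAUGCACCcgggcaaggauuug
miR-500-5p: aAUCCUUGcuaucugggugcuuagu
miR-500-3p: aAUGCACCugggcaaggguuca

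The seed AUGCACC was shared by miR-501-3p and miR-500-3p, which were identical at 18 of 22 bases. From miR-501-3p to miR-500-3p, counted from the 5′ end of the arm, the substitutions were C9U, A18G, U21C and G22A, all outside the seed. The seed AUCCUUG was shared by miR-362-5p and miR-500-5p, and the seed of miR-501-5p differed from it by the single substitution G8U. The 5p seeds of Mir188 and Mir501 likewise differed by 1 base, C6U from miR-188-5p to miR-501-5p. miR-532-3p and miR-188-3p had different seeds in register but shared a run of 8 bases, offset by 1 position. Among the 1679 mature arms of RefSeq's mouse table, which does not hold every gene counted here, 2 of the 7 seeds occurred in another gene. AUCCCUU of miR-188-5p recurred in miR-7061-3p, whose gene Mir7061 had 2 counts in replicate 1 and 1 in replicate 2. ACACACC of miR-362-3p recurred in miR-329-3p, whose gene Mir329 stood at 8.57 CPM (counts per 1000000 sense gene counts) in replicate 1 and 11.4 CPM in replicate 2.

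The likeness did not extend to long identical stretches. Each hairpin was compared with those of all 2202 GENCODE genes. The longest run shared by 2 hairpins of the cluster was 14 nt, between Mir501 and Mir500, and the longest run shared with any hairpin outside it was 12 nt, for Mir532 and Mir500. The shortest of the 9 arms has 21 nt, so none of these arms occurs whole in another of these hairpins. Reads that map to more than 1 place entered no gene count. They made up 43.9% of all reads in replicate 1 and 43.2% in replicate 2.

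Along the transcript, Mir532 (ENSMUSG00000070139.1, chrX:7248402-7248497) came first, followed after 345 nt by Mir188 (ENSMUSG00000065398.1, chrX:7247989-7248056). A gap of 5942 nt led to Mir362 (ENSMUSG00000070100.1, chrX:7241982-7242046), then 630 nt to Mir501 (ENSMUSG00000076251.1, chrX:7241243-7241351), and 3468 nt to Mir500 (ENSMUSG00000070108.2, chrX:7237683-7237774). All 5 are on the minus strand, as is Clcn5 (chrX:7153810-7319358), and together they span 10815 nt. Of 5 annotated Clcn5 transcripts, 3 span the cluster, and in all 3 it lies in the same intron of 103.6 kb (chrX:7213011-7316658), overlapping no exon. The other transcripts do not span the cluster. Clcn5 itself is no row of these microRNA tables, so its level was not analysed here.

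All 5 genes were detected, taken as 10 counts or more in each library, as were 316 of the 2202 microRNA genes. Libraries held 3383676 sense gene counts in replicate 1 and 3676084 in replicate 2. Of 8 heart muscle marker genes 5 were detected, Mir208a and Mir499 among them, but not Mir1a-1, Mir133a-1 and Mir133a-2, and the list summed to 5725 CPM in replicate 1 and 4909 CPM in replicate 2. Multimapping reads are not in these counts, so a gene not detected here is not shown to be absent, and the sums may be too low. Markers of blood, vessel and epithelial cells, given below, and the hepatocyte gene Mir122 were detected too, while the 6 neuronal genes, 5 of them at 0 counts in both libraries, summed to 0.887 and 0.816 CPM in replicates 1 and 2. Reads of the cluster lay on the sense strand only: each member had 0 antisense counts in each library, where 0 allows up to 3 counts. Intervals and such limits cover counting error only, since amplified reads without molecular identifiers are not independent molecules. Levels are given in CPM without division by hairpin length, because a read covers about 1 mature arm.

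Mir532 was the highest member. In replicate 1 it had 1765 counts, or 522 CPM (Wilson 95% interval 498 to 547). In replicate 2 it had 2537 counts, or 690.1 CPM (664 to 718). Its mean of 606 ± 119 CPM (SD, n = 2) placed it at rank 82 among all microRNA genes by these counts, which leave out multimapping reads. The intervals of the libraries did not overlap, with replicate 2 the higher.

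Mir501 was second in both libraries. It had 282 counts in replicate 1, or 83.3 CPM (Wilson 95% interval 74.2 to 93.7), and 409 counts in replicate 2, or 111 CPM (101 to 123). Its mean was 97.3 ± 19.7 CPM (SD, n = 2), rank 137. Here too replicate 2 was higher and the intervals did not overlap. The share of detected genes without overlap was not computed, and the test given below called 60.1% of them.

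Mir188 and Mir500 stood close together, with Mir188 the higher in replicate 1 and no order resolved in replicate 2. Mir188 had 189 counts in replicate 1, or 55.9 CPM (Wilson 95% interval 48.4 to 64.4), and 198 counts in replicate 2, or 53.9 CPM (46.9 to 61.9). Mir500 had 128 counts in replicate 1, or 37.8 CPM (31.8 to 45.0), and 209 counts in replicate 2, or 56.9 CPM (49.7 to 65.1). Between the libraries the intervals of Mir500 did not overlap, while those of Mir188 did. Their means, 54.9 ± 1.41 CPM for Mir188 and 47.3 ± 13.5 CPM for Mir500 (SD, n = 2 each), lay within 1 SD of Mir500, so the order of this pair was not resolved.

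Mir362 was the lowest member in both libraries. It had 59 counts in replicate 1, or 17.4 CPM (Wilson 95% interval 13.5 to 22.5), and 54 counts in replicate 2, or 14.7 CPM (11.3 to 19.2). Its mean was 16.1 ± 1.94 CPM (SD, n = 2), rank 228, and the intervals of the libraries overlapped. The order of the means was thus Mir532, Mir501, Mir188, Mir500 and Mir362, and it was the same per 100 nt of hairpin (631, 89.3, 80.7, 51.5 and 24.7 CPM in that order). The order of levels did not follow the order of transcription: the plot of levels along the cluster shows the lowest gene, Mir362, between Mir188 and Mir501.

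**Figure D1:**
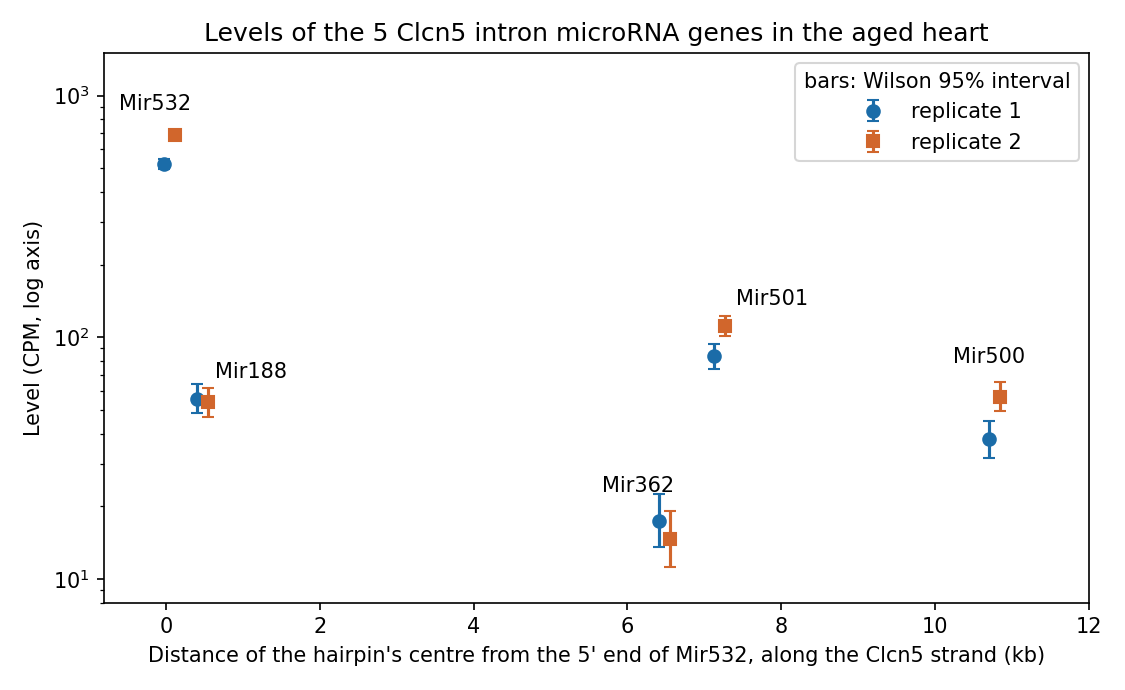
Level of each gene in CPM on a log axis against the distance of its hairpin's centre from the 5′ end of Mir532 in kb, with circles for replicate 1, squares for replicate 2 and Wilson 95% intervals as bars. Mir532 lies at 522 and 690.1 CPM in replicates 1 and 2, while Mir188, 345 nt downstream, lies at 55.9 and 53.9 CPM.

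As a whole the cluster took a small share of the sense gene counts. Multimapping reads, 43.9% of all reads in replicate 1 and 43.2% in replicate 2, are not in these counts. Shares and ranks therefore hold among the counted reads and not for all microRNA of the heart. The cluster's 5 genes held 2423 counts in replicate 1, or 0.0716% of sense gene counts (Wilson 95% interval 0.0688 to 0.0745), and 3407 counts in replicate 2, or 0.0927% (0.0896 to 0.0958). The median of the members' mean levels was 54.9 CPM, beside 62.2 CPM over the 316 detected genes. Of the cluster's counts, Mir532 alone made up 72.8% in replicate 1 (71.0 to 74.6) and 74.5% in replicate 2 (73.0 to 75.9). Mir501 made up 11.6% and 12.0% in replicates 1 and 2, and Mir500 5.28% in replicate 1 and 6.13% in replicate 2. Mir188 made up 7.80% in replicate 1 (6.80 to 8.94) and 5.81% in replicate 2 (5.07 to 6.65), and was the only member whose intervals did not overlap. Mir362 made up 2.44% in replicate 1 (1.89 to 3.13) and 1.58% in replicate 2 (1.22 to 2.06).

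Neighbours on the transcript differed widely in level. Mir532 was counted at 9.34 times Mir188 in replicate 1 (exact 95% interval 8.03 to 10.9) and at 12.8 times in replicate 2 (11.1 to 14.9). Mir501 was counted at 4.78 times Mir362, its neighbour 630 nt upstream, in replicate 1 (3.60 to 6.44) and at 7.57 times in replicate 2 (5.69 to 10.3). Mir501 and Mir500, also neighbours and the pair that shares a 3p seed, were closer: the ratio was 2.20 in replicate 1 (1.78 to 2.74) and 1.96 in replicate 2 (1.65 to 2.32). Closer still were Mir188 and Mir500, which share no seed among these arms, at 1.48 in replicate 1 (1.17 to 1.86) and 0.947 in replicate 2 (0.776 to 1.16). Mir362 and Mir500, which share a 5p seed, stood at a ratio of 0.461 in replicate 1 (0.333 to 0.632) and 0.258 in replicate 2 (0.188 to 0.350). Since a gene count adds both arms, these ratios do not say which seed was present at which level.

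Between the libraries, 3 of the 5 genes differed by more than counting noise, all 3 higher in replicate 2. Each gene's sense counts were tested with an exact binomial test, two-sided, scaled by TMM and with Benjamini-Hochberg adjustment over all 316 detected genes. The test compares these libraries and no conditions. It called 60.1% of all detected genes at 0.05, with 33.5% called higher in replicate 2 and 26.6% higher in replicate 1, so that 3 calls among 5 genes are near the background share of both directions together. Log2 ratios are replicate 1 over replicate 2. Mir500 had a log2 ratio of -0.48 (exact 95% interval -0.81 to -0.15; exact binomial test, adjusted p = 0.00598). Mir501 had a log2 ratio of -0.31 (-0.53 to -0.09; exact binomial test, adjusted p = 0.0110). Mir532 had a log2 ratio of -0.29 (-0.38 to -0.21; exact binomial test, adjusted p = 1.11e-10), a 1.23-fold higher level in replicate 2 that its large counts resolve.

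Mir188 and Mir362 were not called, and their ratios lay on the other side of 0. Mir188 had a log2 ratio of 0.16 (exact 95% interval -0.13 to 0.46; exact binomial test, adjusted p = 0.371) and Mir362 one of 0.36 (-0.20 to 0.92; adjusted p = 0.306). With 59 and 54 counts in replicates 1 and 2, differences of Mir362 within that interval are not excluded. The members' median log2 ratio was -0.29, beside -0.07 over all detected genes, whose SD was 0.95. Scaling by library totals shifts the median of all genes to -0.18. Many genes differed more: 46.5% of detected genes had a larger absolute log2 ratio than Mir500, 57.9% than Mir362, 63.3% than Mir501, 64.6% than Mir532 and 77.5% than Mir188.

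**Figure D2:**
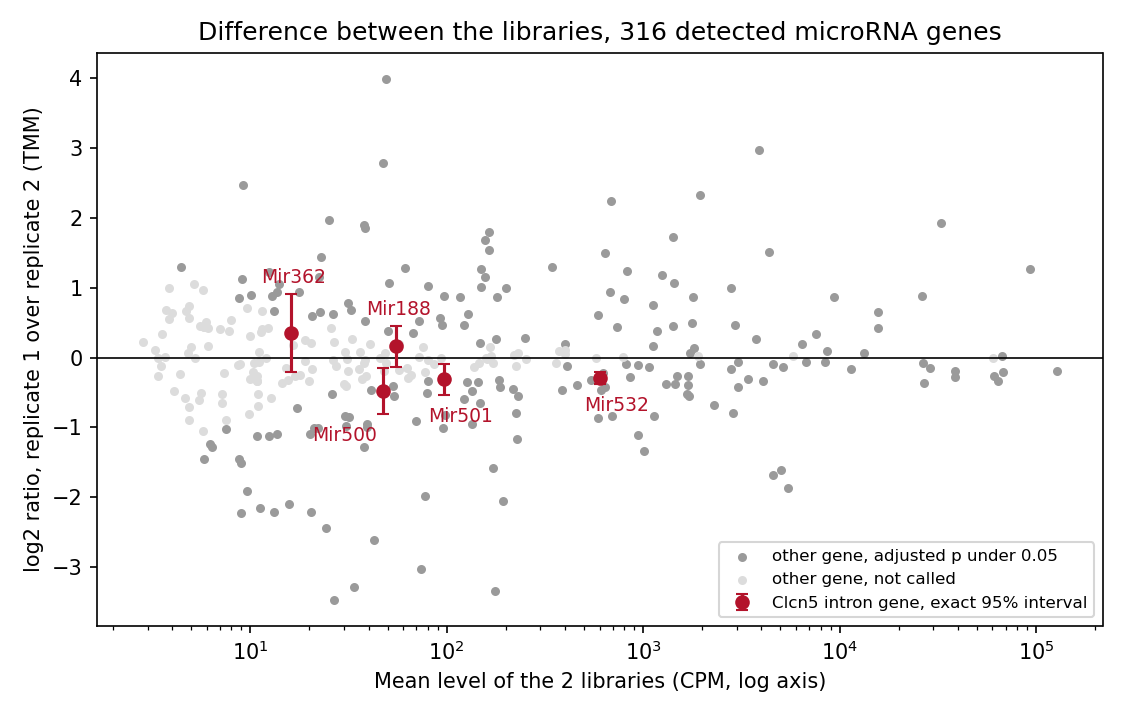
Log2 ratio of replicate 1 over replicate 2 after TMM scaling against mean level in CPM on a log axis, for 316 detected genes, with the Clcn5 intron genes in red with exact 95% intervals and other genes in grey, darker where called. The 5 genes lie between -0.48 and 0.36, within the bulk of the other genes.

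Cell type markers also differed between the libraries. The summed level of 4 white blood cell genes was 7315 CPM in replicate 1 and 14264 CPM in replicate 2, and that of 2 smooth muscle genes was 35639 CPM in replicate 1 and 50822 CPM in replicate 2. The genes of both lists went the same way but unevenly. White blood cell log2 ratios were -1.61 for Mir150, -1.17 for Mir223, -1.10 for Mir142 and -0.08 for Mir155. Smooth muscle log2 ratios were -0.27 for Mir143 and -1.68 for Mir145a. In replicate 1 the 3 erythroid genes summed to 4182 CPM and the endothelial gene Mir126a stood at 129043 CPM, against 1938 and 57714 CPM in replicate 2. The heart muscle sum given above was also higher in replicate 1, where Mir499 and Mir208a held most of it, at 3977 and 1588 CPM. Within that list Mir133b, not called, and Mir133a-1, not detected, went the other way. They stood at 3.25 and 1.48 CPM in replicate 1 and at 6.53 and 4.62 CPM in replicate 2. The 9 epithelial genes, all detected, summed to 301 and 423 CPM in replicates 1 and 2 but parted: Mir215, Mir192, Mir194-1 and Mir194-2 were called higher in replicate 1 and Mir200a, Mir200c, Mir141 and Mir429 higher in replicate 2. The hepatocyte gene Mir122, at 23.9 CPM in replicate 1 and 17.1 CPM in replicate 2, was called higher in replicate 1. The part of these cell types in the difference of Mir532, Mir501 and Mir500 was not tested. In tissue RNA, fewer cells of a type and less microRNA per cell cannot be told apart.

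The balance among the 5 genes was compared between libraries by dividing each ratio in replicate 1 by the same ratio in replicate 2. Of the 10 pairs, 6 had an exact 95% interval that excludes 1. These 6 are the pairs of Mir188 or Mir362 with Mir532, Mir501 or Mir500. The share of such pairs among other detected genes was not computed. Since 60.1% of all detected genes were called between the libraries, the count of 6 is not read as a trait of this cluster. Mir188 over Mir500 was 1.48 in replicate 1 and 0.947 in replicate 2, so that its ratio of ratios was 1.56 (exact 95% interval 1.15 to 2.12). Mir362 over Mir500 had the widest shift of the 10 pairs, 1.78 (1.13 to 2.81). Mir532 over Mir188, the closest neighbours, had 0.729 (0.589 to 0.903).

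The other 4 pairs had intervals that include 1. Mir532 over Mir501 was 6.26 in replicate 1 and 6.20 in replicate 2, a ratio of ratios of 1.01 (exact 95% interval 0.854 to 1.19). Mir532 over Mir500 gave 1.14 (0.899 to 1.44), Mir501 over Mir500 1.13 (0.855 to 1.49), and Mir188 over Mir362 0.874 (0.561 to 1.36). The split of the members into these sets was seen in the data, and the 10 intervals share counts and are not adjusted for their number. An interval that includes 1 does not show an equal shift, and Mir362 had only 59 and 54 counts in replicates 1 and 2. Set against position and sequence the split was mixed. No shift was resolved between Mir501 and Mir500, which share a seed, or between Mir188 and Mir362, neighbours on the transcript. Mir362 parted from Mir500 and Mir501, and Mir188 from Mir532.

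**Figure D3:**
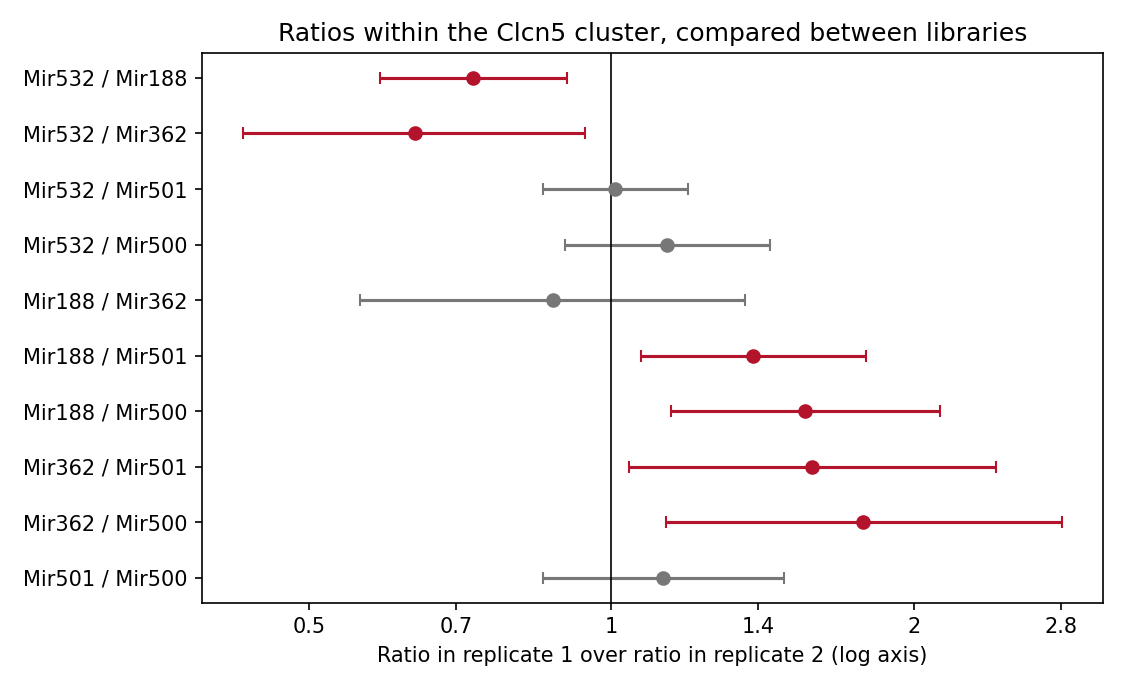
Ratio of each pair of genes in replicate 1 divided by the same ratio in replicate 2, on a log axis, with exact 95% intervals, in red where the interval excludes 1. The 6 red pairs join Mir188 or Mir362 with Mir532, Mir501 or Mir500, and Mir532 over Mir501 lies at 1.01.

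Other annotated clusters give a scale for these values. Taking genes on 1 strand within 10 kb of the next as a cluster, 13 clusters held 3 detected genes or more. Within the Clcn5 cluster the log2 ratios ranged over 0.84, the fourth smallest range of the 13, beside a median of 1.35. Its highest mean level was 37.7 times its lowest, beside a median of 41.9 times. No test of these differences was made, since the range grows with the number of genes and with counting noise.

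The cluster of Mir322, Mir503, Mir351, Mir542 and Mir450 genes, also X-linked, had a log2 range of 0.51 and reached higher levels. Mir322, its highest member, stood at 2499 CPM in replicate 1 and 3614 CPM in replicate 2 (log2 ratio -0.42; exact binomial test, adjusted p = 2.96e-99). In the Mcm7 intron cluster the range was 1.63. There, Mir106b stood at 1135 and 521 CPM in replicates 1 and 2 and Mir25 at 925 and 354 CPM, while Mir93 stood at 4709 and 5571 CPM. The X-linked pair Mir221 and Mir222 had log2 ratios of -0.68 and -0.60.

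**Figure D4:**
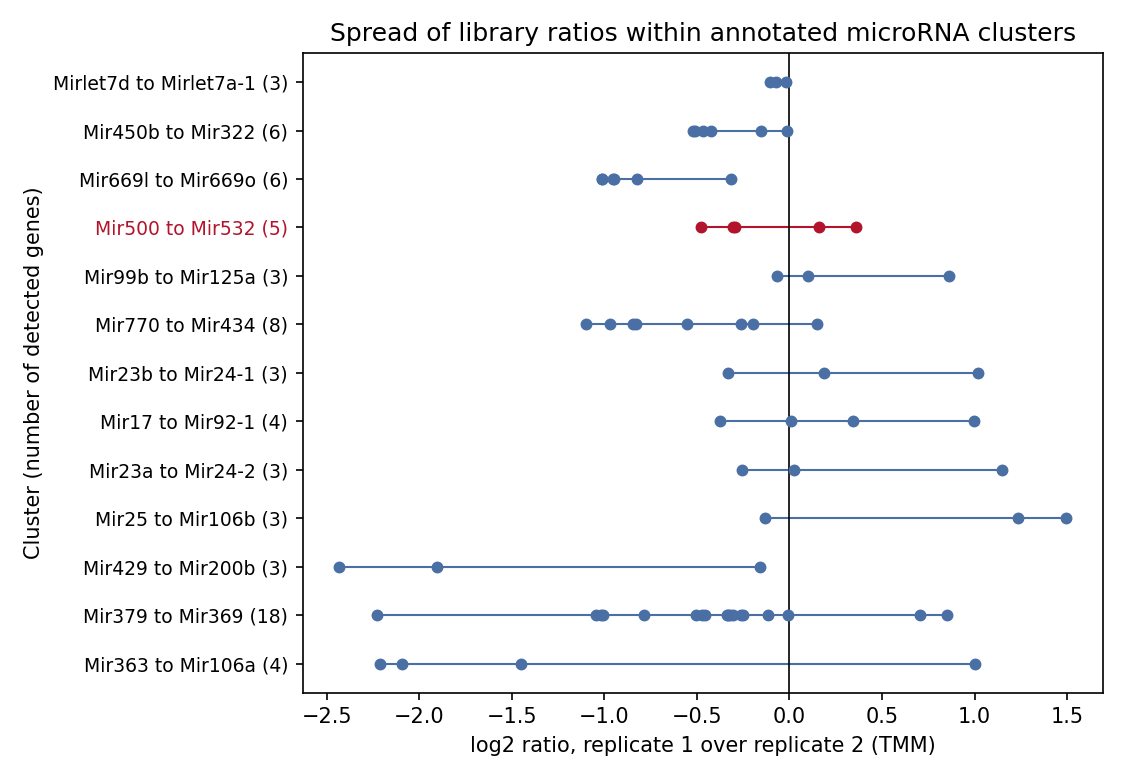
Log2 ratio of replicate 1 over replicate 2 after TMM scaling for each detected gene (point) of the 13 clusters with 3 detected genes or more, ordered by range, with the Clcn5 cluster in red. The Clcn5 genes range over 0.84, and the median range of the clusters is 1.35.

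The genes most like each member were found by the distance between pairs of log2 CPM values over the 2 libraries, a measure that likens levels only. Nearest to Mir532 were Mirlet7c-1 (555 CPM in replicate 1 and 696 CPM in replicate 2, distance 0.0896) and Mir335 (distance 0.118). Nearest to Mir501 were Mir1843b (0.223) and Mir148a (0.267), and nearest to Mir188 were Mir101a (0.0860) and Mir326 (0.238). Nearest to Mir500 were Mir433 (0.206) and Mir181a-1 (0.254), and nearest to Mir362 were Mir190b (0.137) and Mir298 (0.343). None of these 10 genes lies on the X chromosome.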

How the data were processed

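For both aged heart libraries the authors deposited unnormalized read counts by microRNA gene, in columns for either strand, sense and antisense, as read from the values, since the files have no header. Per the deposited readme text, reads were placed on mm10 and genes were taken from annotation M21 of GENCODE. Which aligner and counter were run is not given in the sources used here. In the sense column, unmapped, multimapping, featureless and ambiguous reads, which are 4 rows and no genes, took 14.9%, 43.9%, 5.07% and 0% of the reads of replicate 1 and 16.2%, 43.2%, 5.75% and 0% of replicate 2, and stayed out of totals and tests. CAST/EiJ variants may lower counts on mm10, which was not tested.

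CPM was computed on sense totals, at which 3 counts are 0.887 CPM in replicate 1 and 0.816 CPM in replicate 2. TMM scaling came from edgeR 4.0.16, DESeq2 1.42.0 gave alternative size factors, and R 4.3.3, Python 3.11.15, scipy 1.17.1 and matplotlib 3.10.9 were used. The binomial test and the intervals of count ratios were tested on counts simulated with counting noise only, the noise that they assume. Those simulations do not show how they perform where libraries differ by more than that. Named genes were the members, the 2 nearest genes to each, 3 comparison clusters, genes sharing a member's seed and tissue markers. The members and lists were chosen with earlier results of these data known. Alternatives tried were the strand column, the scaling, the minimum count, the threshold, the denominator and each library left out.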

Additional observations from a re-analysis of the deposited data

How the results depend on the processing

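The counts of the 5 genes were identical in the sense column and the column for either strand, but with the smaller totals of that column the cluster's share was 0.110% in place of 0.0821%, and each member's mean CPM moved up by more than 1 SD (Mir532 to 808 CPM). With all reads as the denominator the share was 0.0291%. Library totals moved the summed cluster log2 ratio to -0.37, against -0.26 with TMM, and DESeq2 size factors gave -0.27. Mir532, Mir501 and Mir500 were called and Mir188 and Mir362 were not under the other strand column, library totals, DESeq2 size factors, no filter and a minimum of 50 counts. At a threshold of 0.01 Mir501 was not called (exact binomial test, adjusted p = 0.0110, and 3.88e-04 to 0.0226 over the other alternatives). No member's ratio changed sign. With 1 library left out, the cluster's share was 0.0716% or 0.0927%, that of Mir532 in the cluster 72.8% or 74.5%, and 5 members were detected. TMM-scaled levels and levels per hairpin length were added after seeing the data and left the members' CPM within 1 SD and their order in place. No paired analysis was possible because the libraries form 1 group. Depth limits Mir362 most, at 59 and 54 counts in replicates 1 and 2.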

Other observations

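The X chromosome holds 142 annotated microRNA genes, of which 33 were detected, and these genes took 2.45% of sense gene counts in replicate 1 and 2.72% in replicate 2. Mir532 was exceeded by 7 of them. Mirlet7f-2 was highest, at 8211 CPM in replicate 1 and 7033 CPM in replicate 2. Mir652 followed, at 5613 and 5938 CPM in replicates 1 and 2. Of the 28 detected X-linked genes outside the Clcn5 cluster, 13 were called higher in replicate 2 and 5 higher in replicate 1 by the exact binomial test, with a median log2 ratio of -0.14. Over all 316 detected genes, 33.5% were called higher in replicate 2 and 26.6% higher in replicate 1, with a median of -0.07.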
